A study of Mus musculus with 9 samples.

Results

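The microglia genes described here are 34 genes that are known to mark microglia or to work in them, out of the 47729 Ensembl genes counted in each library. They were picked by symbol, and all 34 symbols were found in the files. Of these, 33 had enough counts to be tested, and Cst7 did not. The libraries came from dissected midbrain of C57/Bl6 mice (C57BL/6J in the study's methods) at P180 (age 180 days), with 3 libraries for each of 3 Dot1l genotypes and the tissue of 3 animals pooled in each library. All mice, the controls included, carried Pitx3-Cre on 1 allele and the Rosa-lox-stop-lox-Yfp reporter. Dot1l(+/+) controls had no floxed allele, Dot1l(fl/+) mice had 1 and Dot1l(fl/fl) mice had 2. Dot1l encodes the methyltransferase for lysine 79 of histone H3 (H3K79). Pitx3 drives Cre in midbrain dopamine (DA) neurons, so the deletion is aimed at these neurons, and microglia are not known to express Pitx3. The comparison asks how RNA of the neighbouring immune cells differed between the genotypes. The tissue label names midbrain dopamine neurons, but markers of oligodendrocytes, choroid plexus and microglia were counted beside those of dopamine neurons. In such bulk tissue, fewer cells of a type and less RNA per cell cannot be told apart.

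Microglia are the resident macrophages of the brain. They enter the embryo's brain from the yolk sac, depend on the receptor Csf1r for survival, and scan their surroundings with motile processes that carry receptors for nucleotides (P2ry12) and for the neuronal chemokine fractalkine (Cx3cr1). In the healthy brain they express a homeostatic set of genes that includes P2ry12, Tmem119, Cx3cr1 and the transcription factor Sall1. Near damaged or dying neurons they can shift to an activated state with more phagocytosis, in which Trem2 signals through its adaptor Tyrobp and genes of the lysosome (Cd68, Cst7), Itgax and the complement chains C1qa, C1qb and C1qc are known to increase. The midbrain is known for its dense population of microglia.

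The library totals lay between 16422135 and 28403218 counts. Counts are given as CPM (counts scaled to library size after TMM, edgeR's correction for composition). Dot1l itself was at 83.5 CPM ± 2.85 (SD, n = 3) in Dot1l(+/+), at 73.5 ± 11.96 with 1 floxed allele and at 79.6 ± 4.95 with 2, and the 3 groups overlapped. Its counts cover the whole gene in all cells of the tissue. The 6 dopamine neuron markers summed to between 400.8 and 454.6 CPM in Dot1l(+/+). The sums were 298.0 to 399.8 CPM in Dot1l(fl/+) mice and 279.7 to 297.0 CPM in Dot1l(fl/fl) mice. The 5 choroid plexus markers summed to 554.6 CPM in replicate 3 of Dot1l(fl/+), to between 54.1 and 160.5 CPM in the other libraries of Dot1l(+/+) and Dot1l(fl/+), and to between 28.2 and 35.6 CPM in Dot1l(fl/fl). Both marker lists thus moved with genotype, and their part in the values of the microglia genes was not tested.

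The 34 genes together made up 536.5, 555.2 and 574.3 CPM in the 3 Dot1l(+/+) libraries. The sums were 527.9, 636.9 and 608.9 CPM in the 3 Dot1l(fl/+) libraries and 566.0, 622.9 and 581.2 CPM in the 3 Dot1l(fl/fl) libraries. The lowest and the highest of the 9 sums were both from Dot1l(fl/+), and the 3 genotypes overlapped. Cells that share many of these genes were checked with lists of their own. The 12 markers of blood leukocytes summed to between 0.945 and 1.77 CPM over the 9 libraries, and Ccr2 was the only tested gene among them. The 11 markers of border macrophages, which line vessels and meninges, summed to between 30.6 and 44.3 CPM, and none of the 11 had an unadjusted p under 0.05 in any comparison. Of all genes tested, 3.93 to 8.39% had such a p, depending on the comparison.

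Levels between genes were compared per kilobase of the longest coding transcript, as CPM per kb. In Dot1l(+/+), Ctss (cathepsin S, a lysosomal protease) was highest at 43.6 CPM per kb ± 0.49 (SD, n = 3). C1qb at 25.2 ± 1.71 CPM per kb and C1qa at 23.6 ± 2.33 followed, and these neighbours did not differ beyond their spread. Csf1r at 18.8 ± 0.96 and C1qc at 17.0 ± 1.51 CPM per kb came next, again within their spread. The homeostatic genes were in the upper part of the order, with P2ry12 at 14.6 ± 1.85, Cx3cr1 at 10.3 ± 1.19, Tmem119 at 7.38 ± 0.95 and Sall1 at 7.14 ± 0.096 CPM per kb. Trem2 was at 6.43 ± 0.25 and its adaptor Tyrobp at 8.31 ± 0.87 CPM per kb. The order ended with P2ry6 at 0.73 ± 0.024, Cst7 at 0.067 ± 0.060 and Itgax at 0.050 ± 0.031 CPM per kb, the last pair within their spread. Cst7, which encodes the protease inhibitor cystatin F, had 0, 2 and 3 counts in the Dot1l(+/+) libraries, 1, 3 and 3 with 1 floxed allele and 0, 2 and 1 with 2. None of these exceeds the 3 counts that a count of 0 allows, equal to between 0.106 and 0.183 CPM by library, so no fold change is given for it. This limit covers counting error only.

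**Figure D1:**
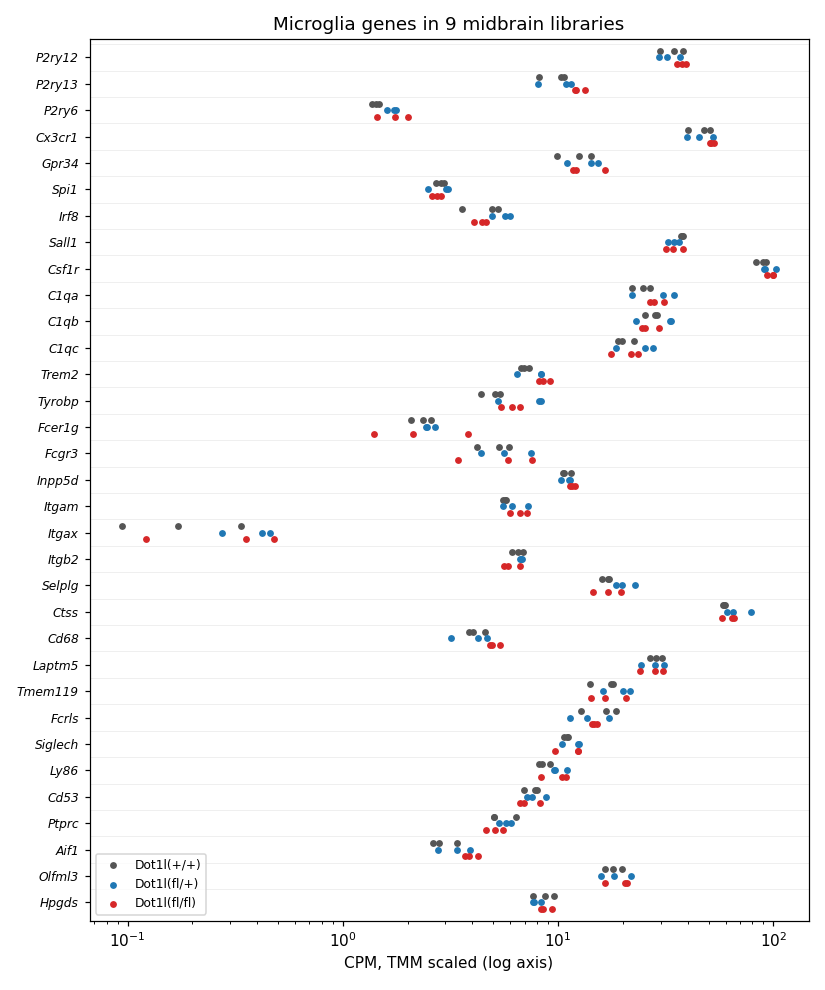
CPM on a log axis for 33 microglia genes (rows) in the 9 midbrain libraries, 1 point per library, coloured by Dot1l genotype with 3 libraries each. Cst7 is not drawn. Csf1r, at 83.3 to 102.7 CPM, has the highest values and Itgax the lowest, and for most genes the 3 colours overlap.

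Several members lie next to each other in the genome (GRCm38, GENCODE M21 gene bounds). P2ry12 (chr3:59216272-59262871, minus strand) and P2ry13 (chr3:59207892-59210882, minus strand) are neighbours. C1qb (chr4:136880129-136886187), C1qc (chr4:136889804-136893065) and C1qa (chr4:136895917-136898803) form a cluster on the minus strand, Tmem119 (chr5:113793729-113800516) and Selplg (chr5:113818536-113832644) lie close together on the minus strand, and Itgam and Itgax follow each other on the plus strand of chromosome 7. Promoter windows of 250 bases before a RefSeq start site (GRCm38.p6) were at hand for 25 of the 34 genes. The sequence AGGAAGT, which is part of the site read by PU.1, the transcription factor encoded by Spi1, was searched on both strands. These 25 genes had 30 windows, since some genes have more than 1 start site. The sequence occurred in 10 of the 30 windows, belonging to 9 genes (C1qb, C1qc, Cst7, Fcrls, Hpgds, Inpp5d, P2ry12, Ptprc and Sall1), and 7.69% of all 32851 promoter windows held it. The longer form GAGGAAGT, which contains AGGAAGT, occurred in 3 of the 30 (C1qc, Hpgds and Inpp5d) and in 2.44% of all windows. Such a match is a description of the letters and not a binding site. The windows below are those of a homeostatic gene (P2ry12), its neighbour P2ry13, a complement gene (C1qb), and the activation receptor Trem2 and the protease gene Ctss, whose values by library are given further on. They are written 5′ to 3′ on the gene's strand, with AGGAAGT or its reverse complement ACTTCCT in capitals. They cover chr3:59262986-59263235 (minus strand), chr3:59210883-59211132 (minus strand), chr4:136886201-136886450 (minus strand), chr17:48346151-48346400 (plus strand) and chr3:95526536-95526785 (plus strand).
P2ry12: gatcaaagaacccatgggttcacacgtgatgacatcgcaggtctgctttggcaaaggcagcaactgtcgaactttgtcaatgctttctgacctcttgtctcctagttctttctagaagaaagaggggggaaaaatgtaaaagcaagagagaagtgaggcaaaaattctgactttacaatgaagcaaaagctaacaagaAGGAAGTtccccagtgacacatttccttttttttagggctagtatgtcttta
P2ry13: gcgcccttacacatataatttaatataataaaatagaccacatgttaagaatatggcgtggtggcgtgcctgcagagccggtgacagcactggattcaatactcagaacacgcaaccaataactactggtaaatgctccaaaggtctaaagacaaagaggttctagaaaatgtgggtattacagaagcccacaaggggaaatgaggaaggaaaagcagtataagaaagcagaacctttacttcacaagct
C1qb: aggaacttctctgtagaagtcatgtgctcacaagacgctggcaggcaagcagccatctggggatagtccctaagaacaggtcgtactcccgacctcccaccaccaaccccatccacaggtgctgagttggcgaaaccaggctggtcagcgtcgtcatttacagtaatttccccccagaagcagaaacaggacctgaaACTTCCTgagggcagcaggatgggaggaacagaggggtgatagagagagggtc
Trem2: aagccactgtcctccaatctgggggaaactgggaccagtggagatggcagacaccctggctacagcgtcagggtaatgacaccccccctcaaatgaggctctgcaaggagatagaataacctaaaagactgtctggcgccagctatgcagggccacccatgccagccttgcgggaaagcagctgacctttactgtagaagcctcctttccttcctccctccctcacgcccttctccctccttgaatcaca
Ctss: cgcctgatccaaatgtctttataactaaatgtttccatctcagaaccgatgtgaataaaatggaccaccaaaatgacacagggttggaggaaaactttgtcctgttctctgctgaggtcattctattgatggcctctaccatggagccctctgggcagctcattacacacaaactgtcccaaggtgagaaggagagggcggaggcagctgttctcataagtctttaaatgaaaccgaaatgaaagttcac
The match began 52 bases before the start site in P2ry12 and 53 bases before it, on the other strand, in C1qb, and the windows of P2ry13, Trem2 and Ctss held none.

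In Dot1l(fl/+) against Dot1l(+/+), the microglia genes leaned towards higher values without passing the test. Of the 33 genes tested, 26 had a log2 fold change above 0, against 48.9% of all 17671 genes tested. Their median log2 fold change was 0.11, against -0.0034 for all genes tested. It was 0.20 without replicate 1 of Dot1l(fl/+) and 0.049 without replicate 2 of Dot1l(fl/+). By library, the members' median deviation from the control mean of log2 CPM was -0.065, 0.25 and 0.14 in Dot1l(fl/+). In Dot1l(+/+) it ran from -0.047 to 0.045, so replicate 1 of Dot1l(fl/+) lay below all controls. The pooled SD of this deviation between replicates was 0.11, as large as the median fold change. In edgeR's quasi-likelihood test 0 of 33 passed an adjusted p of 0.05, beside 0.00% of all genes tested, and the lowest adjusted p of the 33 was 0.541. Over all genes 1483 had an unadjusted edgeR p under 0.05, and DESeq2 called 7 at an adjusted p of 0.05. An unadjusted p under 0.05 was reached by 3 of 33 members (9.09%), Tyrobp, Selplg and Ctss, all with higher means in Dot1l(fl/+), beside 8.39% of all genes in either direction, 4.30% in the higher direction and 4.09% in the lower. The members' share in either direction was thus near the background. Values of the 2 groups did not overlap for 4 members that were higher in Dot1l(fl/+) (Ctss, Ly86, P2ry6 and Selplg, background 6.84%) and for 1 that was lower (Sall1, background 6.47%). Replicate 1 of Dot1l(fl/+) stood below the other 2 libraries of its genotype in 25 of the 33 genes. Without it, 8 members had an unadjusted p under 0.05 (C1qa, C1qb, C1qc, Ctss, Selplg, Tmem119, Trem2 and Tyrobp), while the share of all genes went from 8.39 to 12.5%. Without replicate 1 of Dot1l(+/+) 1 member had (Tyrobp), beside 7.19% of all genes, and without replicate 3 of Dot1l(fl/+) 2 had, beside 5.65%.

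**Figure D2:**
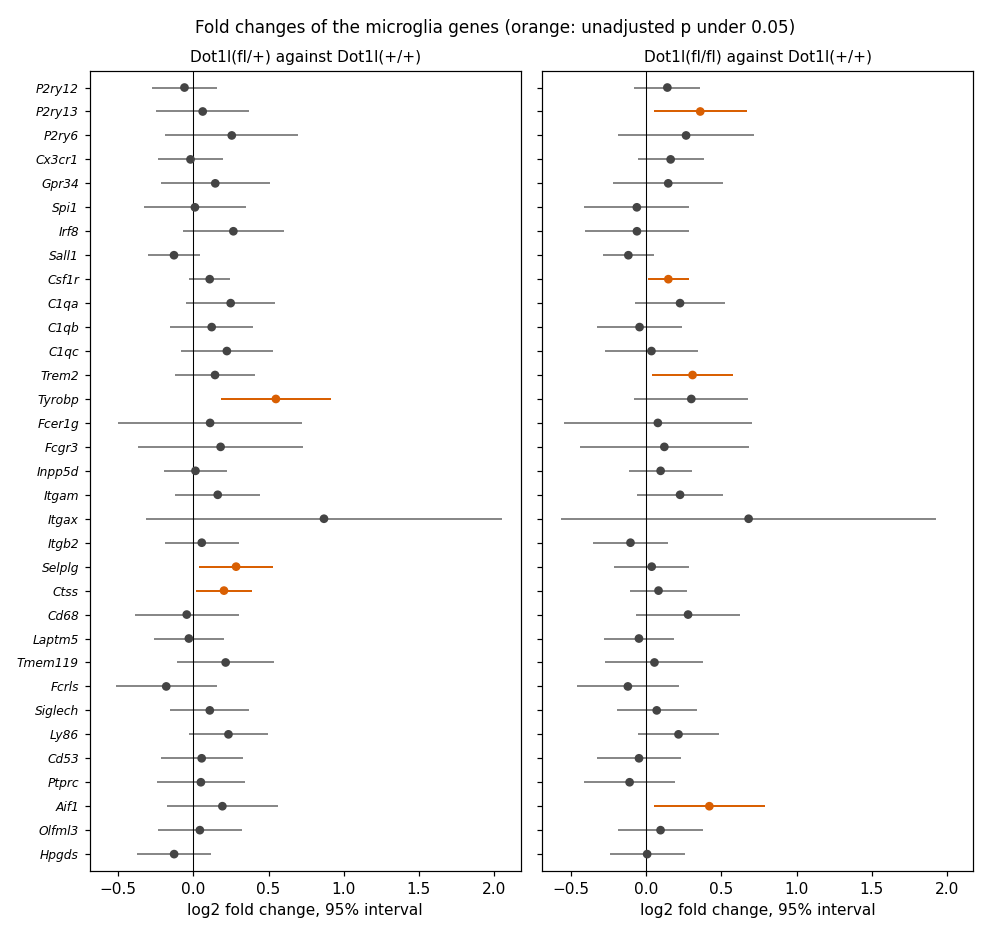
Log2 fold change (x axis) with its 95% interval from edgeR for the 33 tested microglia genes (rows), for Dot1l(fl/+) (left) and Dot1l(fl/fl) (right) against the same 3 Dot1l(+/+) libraries. Orange marks an unadjusted p under 0.05, for 3 genes on the left and 4 on the right, all to the right of 0.

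Tyrobp, the adaptor through which Trem2 signals, had the smallest p of the members, although its groups overlapped. It stood at 5.39, 4.38 and 5.11 CPM in the Dot1l(+/+) libraries and at 5.29, 8.13 and 8.32 CPM in the Dot1l(fl/+) libraries. Replicates 2 and 3 of Dot1l(fl/+) were above every control, while replicate 1 lay inside the control range. The log2 fold change was 0.55 (95% interval 0.19 to 0.91, adjusted p = 0.541 in edgeR). The unadjusted call held in all 17 alternatives, where the adjusted p ran from 0.0345 (edgeR without a filter on low counts) to 0.867.

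Selplg, which encodes the selectin ligand PSGL1, was at 15.98, 17.1 and 17.2 CPM in Dot1l(+/+) and at 18.6, 19.9 and 22.7 CPM in Dot1l(fl/+). All 3 Dot1l(fl/+) libraries were above all controls, with a log2 fold change of 0.28 (95% interval 0.043 to 0.52, adjusted p = 0.541 in edgeR). The unadjusted call was lost without replicate 1 of Dot1l(+/+) (0.25) and without replicate 3 of Dot1l(fl/+) (0.20). Ctss was at 58.6, 59.9 and 58.9 CPM in Dot1l(+/+) and at 60.9, 78.4 and 64.9 CPM in Dot1l(fl/+). The groups did not overlap, and replicate 2 of Dot1l(fl/+) stood far above the rest. Its log2 fold change was 0.20 (95% interval 0.024 to 0.38, adjusted p = 0.557 in edgeR), and 0.088 without that library, where the call was lost. The call was also lost without replicate 1 (0.20) or replicate 3 (0.20) of Dot1l(+/+).

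The complement chains C1qa, C1qb and C1qc form the recognition part of C1q, which tags synapses and debris for removal. C1qa was at 26.8, 21.9 and 24.8 CPM in Dot1l(+/+) and at 22.1, 34.4 and 30.6 CPM in Dot1l(fl/+). C1qb was at 25.3, 28.7 and 28.2 CPM in Dot1l(+/+) and at 22.9, 33.03 and 33.4 CPM in Dot1l(fl/+). C1qc was at 19.9, 19.0 and 22.5 CPM in Dot1l(+/+) and at 18.7, 25.3 and 27.6 CPM in Dot1l(fl/+). The 3 chains shared a pattern, with replicate 1 of Dot1l(fl/+) at the low end of the controls (C1qa) or just below them (C1qb and C1qc) and replicates 2 and 3 above all controls. Their log2 fold changes were 0.25 (95% interval -0.039 to 0.54), 0.12 (-0.15 to 0.39) and 0.22 (-0.077 to 0.52), with adjusted p-values of 0.635, 0.828 and 0.696 in edgeR. Without replicate 1 of Dot1l(fl/+) they were 0.41, 0.28 and 0.37, and all 3 had an unadjusted edgeR p under 0.05. Leaving out other single libraries lowered them to as little as 0.107, 0.032 and 0.105.

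Among the remaining receptors, the log2 fold changes were 0.14 for Trem2, 0.11 for Fcer1g (the common chain of Fc receptors), 0.18 for Fcgr3 (a receptor for IgG) and 0.014 for Inpp5d (an inositol phosphatase that damps such receptors). Of these, Fcer1g and Fcgr3 were imprecise, with 95% intervals of -0.49 to 0.72 and -0.36 to 0.73. The nucleotide and chemokine receptors did not move together. P2ry12 was at -0.060 (95% interval -0.27 to 0.15), Cx3cr1 at -0.019 (-0.23 to 0.19) and P2ry13 at 0.062 (-0.24 to 0.36). P2ry6, a receptor for UDP, was at 1.47, 1.37 and 1.43 CPM in Dot1l(+/+) and at 1.72, 1.77 and 1.60 CPM in Dot1l(fl/+), without overlap, but its adjusted p was 0.76 in edgeR. Sall1, a transcription factor that keeps microglia in their homeostatic state, was the only member wholly below the controls, at 37.6, 37.1 and 38.1 CPM in Dot1l(+/+) and 34.4, 32.3 and 36.4 CPM in Dot1l(fl/+). Its log2 fold change was -0.13 (95% interval -0.29 to 0.034, adjusted p = 0.668 in edgeR). Fcrls had the lowest log2 fold change of the members, -0.18 (95% interval -0.51 to 0.15), with groups that overlapped. Without replicate 2 of Dot1l(fl/+) Fcrls was at -0.355, with an unadjusted edgeR p under 0.05. Itgax had the highest, 0.87 (95% interval -0.31 to 2.05), at very low levels and with overlap. Tmem119 was at 14.1, 17.7 and 17.9 CPM in Dot1l(+/+) and at 16.1, 20 and 21.6 CPM in Dot1l(fl/+), a log2 fold change of 0.21 (95% interval -0.10 to 0.53, adjusted p = 0.72 in edgeR). Ly86, a partner of a Toll-like receptor homologue, was at 9.22, 8.46 and 8.15 CPM in Dot1l(+/+) and at 9.56, 11.02 and 9.73 CPM in Dot1l(fl/+), without overlap, a log2 fold change of 0.23 (95% interval -0.024 to 0.49). In the fit without replicate 3 of Dot1l(fl/fl), Ly86 gained an unadjusted edgeR p under 0.05. With the replicate number as a block Tmem119 was called at an unadjusted edgeR p under 0.05. The oligodendrocyte markers, the most abundant list, moved in the same comparison, with 3 of 8 (Cldn11, Cnp and Mog) higher at an unadjusted edgeR p under 0.05 and sums of 10507.6 to 11545.8 CPM in Dot1l(+/+) and 10670.4 to 12055.4 CPM in Dot1l(fl/+). At the same threshold 3 of 5 choroid plexus markers were higher (median log2 fold change 1.06) and 3 of 6 dopamine neuron markers were lower (median -0.24). None of the genes of these 3 lists was at 0, and their part in the result was not tested.

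In Dot1l(fl/fl) against Dot1l(+/+), 9 of the 33 members stood clear of the controls, with small differences. Log2 fold changes were above 0 for 24 of 33 members, against 50.4% of all genes tested, with a median of 0.095 against 0.0009 for all genes. The median was 0.17 without replicate 1 and 0.042 without replicate 2 of Dot1l(fl/fl), and 0.036 without replicate 1 of Dot1l(+/+). In edgeR 0 of 33 passed an adjusted p of 0.05, beside 0.00% of all genes tested, and the lowest adjusted p of the members was 0.999. Over all genes 694 had an unadjusted edgeR p under 0.05, and DESeq2 called 3 at an adjusted p of 0.05. The unadjusted threshold was passed by 4 of 33 members (12.1%), P2ry13, Trem2, Aif1 and Csf1r, all higher, beside 3.93% of all genes in either direction, 2.21% in the higher direction and 1.72% in the lower. In 9 members all 3 Dot1l(fl/fl) libraries were above all 3 controls (Aif1, C1qa, Cd68, Csf1r, Cx3cr1, Itgam, P2ry13, Trem2 and Tyrobp), beside 5.03% of all genes, and in 0 members were they all below, beside 5.25%. These 9 comprise receptors, a complement chain, an adaptor, an integrin, a lysosomal protein and a cytoskeletal protein. With the replicate number as a block, 3 genes passed an adjusted p of 0.05 in edgeR, none of them a member, and the unadjusted threshold was passed by the same 4 members, beside 4.43% of all genes. The count of 4 rested on single libraries. It was 0 without replicate 2 of Dot1l(fl/fl), beside 2.13% of all genes, and 1 (Csf1r) without replicate 1 of Dot1l(+/+), beside 2.94%, so the count over all genes was lower as well.

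P2ry13, a receptor for ADP, was at 8.18, 10.3 and 10.6 CPM in Dot1l(+/+) and at 12.1, 13.3 and 11.95 CPM in Dot1l(fl/fl). Every Dot1l(fl/fl) library was above every control, and replicate 1 of Dot1l(+/+) was low within its group. The log2 fold change was 0.36 (95% interval 0.057 to 0.66, adjusted p = 0.999 in edgeR). The unadjusted call was lost without replicate 1 of Dot1l(+/+) (0.25) and without replicate 2 of Dot1l(fl/fl) (0.31).

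Trem2, the lipid receptor of activated microglia, was at 6.76, 7.30 and 6.91 CPM in Dot1l(+/+) and at 8.52, 9.21 and 8.19 CPM in Dot1l(fl/fl). The groups were apart and tight. The log2 fold change was 0.31 (95% interval 0.046 to 0.57, adjusted p = 0.999 in edgeR), and it stayed between 0.26 and 0.34 in all 17 alternatives. The unadjusted call was nevertheless lost without replicate 1 (0.29) or 3 (0.30) of Dot1l(+/+) or replicate 2 of Dot1l(fl/fl) (0.26). Its adaptor Tyrobp was at 6.12, 6.64 and 5.46 CPM in Dot1l(fl/fl), above the 4.38 to 5.39 CPM of the controls, with a log2 fold change of 0.30 (95% interval -0.072 to 0.67, adjusted p = 0.999 in edgeR). The receptor and its adaptor thus had nearly the same fold change, and the interval of Tyrobp included 0.

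Aif1, which encodes the actin-binding protein IBA1 used to stain microglia, was at 2.79, 2.62 and 3.38 CPM in Dot1l(+/+) and at 3.84, 4.23 and 3.70 CPM in Dot1l(fl/fl). All Dot1l(fl/fl) libraries were above all controls. The log2 fold change was 0.42 (95% interval 0.055 to 0.78, adjusted p = 0.999 in edgeR). The unadjusted call was lost under DESeq2 (0.42) and in edgeR without replicate 1 (0.39) or 2 (0.35) of Dot1l(+/+) or replicate 2 of Dot1l(fl/fl) (0.36). Csf1r, the receptor for the survival factors CSF1 and IL34, was at 92.2, 89.2 and 83.3 CPM in Dot1l(+/+) and at 99.7, 99.4 and 93.7 CPM in Dot1l(fl/fl). The groups were separate by a narrow margin. The log2 fold change was 0.15 (95% interval 0.016 to 0.28, adjusted p = 0.999 in edgeR). The unadjusted call was lost in edgeR without replicate 3 of Dot1l(+/+) (0.11), replicate 1 (0.13) or replicate 2 (0.14) of Dot1l(fl/fl). Csf1r shares 873 exon bases with Hmgxb3 on the opposite strand, and whether strand was used in counting is not given in the sources used here, so its reads cannot be wholly told apart from those of that gene.

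Cd68, a glycoprotein of the phagocyte's lysosome, was at 4.02, 4.59 and 3.87 CPM in Dot1l(+/+) and at 4.84, 4.94 and 5.40 CPM in Dot1l(fl/fl), a log2 fold change of 0.28 (95% interval -0.059 to 0.62, adjusted p = 0.999 in edgeR). Itgam, the CD11b chain of complement receptor type 3, was at 5.53, 5.67 and 5.75 CPM in Dot1l(+/+) and at 5.96, 7.20 and 6.67 CPM in Dot1l(fl/fl), a log2 fold change of 0.22 (95% interval -0.056 to 0.51, adjusted p = 0.999 in edgeR). C1qa was at 26.8, 31.0 and 27.96 CPM in Dot1l(fl/fl), with a log2 fold change of 0.22 (95% interval -0.065 to 0.51, adjusted p = 0.999 in edgeR). These 3 genes had groups that did not overlap, yet each interval included 0. Itgam shares 3450 exon bases with Gm49368 on the same strand, and Gm49368 had a mean of 0.0 counts. How reads in the shared bases were counted is not given, so the level of Itgam may be too low. The log2 fold changes of the other C1q chains were -0.045 for C1qb (95% interval -0.32 to 0.23) and 0.034 for C1qc (-0.27 to 0.34), and the difference between the chains was not tested. C1qa gained an unadjusted edgeR p under 0.05 without a filter on low counts, and both C1qa and Tyrobp gained one in the fit of the 2 genotypes alone and without replicate 1 of Dot1l(fl/+), with log2 fold changes of 0.22 for C1qa and of 0.30 for Tyrobp. Itgax, the CD11c chain known from activated microglia, was at 0.095, 0.17 and 0.34 CPM in Dot1l(+/+) and at 0.48, 0.36 and 0.12 CPM in Dot1l(fl/fl). Its values were too low to place its fold change, with a 95% interval of -0.56 to 1.92 on the log2 scale.

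Cx3cr1, the fractalkine receptor, was at 40.3, 47.7 and 50.8 CPM in Dot1l(+/+) and at 51.4, 53.1 and 50.95 CPM in Dot1l(fl/fl). The groups were separate by a narrow margin, and replicate 1 of Dot1l(+/+) was low within its group. The log2 fold change was 0.16 (95% interval -0.050 to 0.37, adjusted p = 0.999 in edgeR). P2ry12 was at 29.6, 34.6 and 38.25 CPM in Dot1l(+/+) and at 35.9, 39.5 and 37.7 CPM in Dot1l(fl/fl), with overlap and a log2 fold change of 0.14 (95% interval -0.072 to 0.35). Tmem119 was at 0.054 (-0.27 to 0.37), with groups that overlapped as well.

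The 3 transcription factors all had log2 fold changes below 0. Spi1 (PU.1) was at -0.063 (95% interval -0.41 to 0.28), Irf8 at -0.062 (-0.40 to 0.28) and Sall1 at -0.12 (-0.28 to 0.045). None passed the unadjusted test. Without replicate 1 of Dot1l(fl/fl), Sall1 was at -0.19 with an unadjusted edgeR p under 0.05. The 6 other surface markers had log2 fold changes between -0.12 (Fcrls) and 0.21 (Ly86), and none had an unadjusted p under 0.05. Without replicate 3 of Dot1l(fl/fl), Ly86 was at 0.32 with an unadjusted edgeR p under 0.05. Ptprc, the phosphatase CD45 that is low in microglia and high in blood leukocytes, was at -0.11 (95% interval -0.41 to 0.18). The remaining members stayed close to 0 in every comparison. They are Gpr34 (a receptor for lysophosphatidylserine), Itgb2 (the CD18 chain that pairs with CD11b), Laptm5 (a lysosomal membrane protein), Siglech (a receptor of the Siglec family), the tetraspanin Cd53, the secreted matrix protein Olfml3 and the prostaglandin D synthase Hpgds. Their log2 fold changes ran from -0.13 (Hpgds) to 0.15 (Gpr34) in Dot1l(fl/+) against Dot1l(+/+) and from -0.11 (Itgb2) to 0.15 (Gpr34) in Dot1l(fl/fl) against the same controls. Between both floxed genotypes they ran from -0.16 (Itgb2) to 0.13 (Hpgds), and none had an unadjusted edgeR p under 0.05. In Dot1l(fl/fl) against Dot1l(+/+), 5 of the 6 dopamine neuron markers and 2 of the 5 choroid plexus markers were lower at an unadjusted edgeR p under 0.05, with no marker of either list at 0, and their part in the result was not tested.

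**Figure D3:**
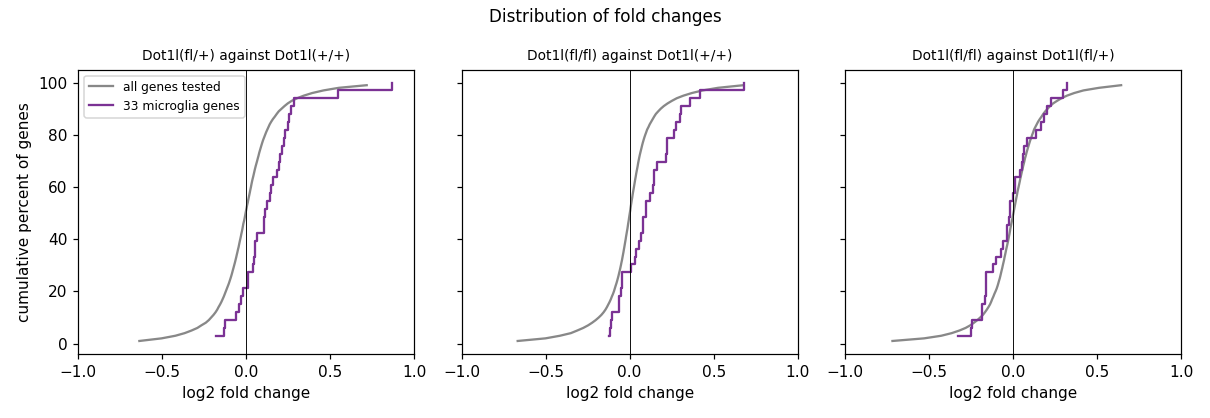
Cumulative percent of genes (y axis) against log2 fold change (x axis) in the 3 comparisons, for all 17671 genes tested (grey) and the 33 microglia genes (purple). The purple line lies to the right of the grey line in both comparisons with Dot1l(+/+), with medians of 0.11 and 0.095, and close to it in Dot1l(fl/fl) against Dot1l(fl/+), with a median of -0.019. The first and the second comparison share the Dot1l(+/+) libraries.

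Between Dot1l(fl/fl) and Dot1l(fl/+) the microglia genes lay on both sides of 0. Log2 fold changes were above 0 for 15 of 33, against 50.5% of all genes tested, and the median was -0.019, against 0.0015 for all genes. In edgeR 0 of 33 passed an adjusted p of 0.05, beside 0.00% of all genes tested, with a lowest adjusted p of 0.762. Over all genes 1145 had an unadjusted edgeR p under 0.05, and DESeq2 called 14 at an adjusted p of 0.05. Only Selplg had an unadjusted p under 0.05, 1 of 33 (3.03%) beside 6.48% of all genes in either direction and 2.87% in the lower. In the higher direction it was 0 of 33, beside 3.60%. Selplg was at 19.7, 17.1 and 14.6 CPM in Dot1l(fl/fl) against 18.6, 19.9 and 22.7 CPM in Dot1l(fl/+), a log2 fold change of -0.25 (95% interval -0.49 to -0.0065, adjusted p = 0.762 in edgeR). The groups overlapped, and this call was lost in 11 of 17 alternatives. Without replicate 3 of Dot1l(fl/fl) it was at -0.15, and then 0 members had an unadjusted p under 0.05, beside 5.29% of all genes. With the replicate number as a block, 4 of 33 members had an unadjusted edgeR p under 0.05 in this comparison (Cd68, Cx3cr1, P2ry12 and P2ry13, all higher in Dot1l(fl/fl)), beside 7.12% of all genes, and Selplg did not. Without replicate 1 of Dot1l(fl/+) the count was 6 (C1qb, C1qc, Ctss, Irf8, Selplg and Tyrobp, all lower in Dot1l(fl/fl)), beside 9.37% of all genes. Without replicate 2 of Dot1l(fl/+) it was 3 (Cd68, P2ry12 and P2ry13, all higher), beside 9.79%. It was 2, beside 4.9 to 6.15%, without replicate 1 or 3 of Dot1l(+/+), replicate 3 of Dot1l(fl/+) or replicate 2 of Dot1l(fl/fl).

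Groups did not overlap for P2ry13 and Cd68, which were higher in Dot1l(fl/fl) (background 5.98%), and for Irf8, which was lower (background 5.14%). P2ry13 was at 8.11, 10.9 and 11.5 CPM in Dot1l(fl/+) against 12.1, 13.3 and 11.95 CPM in Dot1l(fl/fl), a log2 fold change of 0.30 (95% interval -0.0018 to 0.60, adjusted p = 0.77 in edgeR). Cd68 was at 3.17, 4.66 and 4.24 CPM in Dot1l(fl/+) against 4.84, 4.94 and 5.40 CPM in Dot1l(fl/fl), a log2 fold change of 0.32 (95% interval -0.012 to 0.66, adjusted p = 0.776 in edgeR). Irf8, a transcription factor of macrophage development, was at 4.94, 5.65 and 5.95 CPM in Dot1l(fl/+) against 4.64, 4.43 and 4.06 CPM in Dot1l(fl/fl), a log2 fold change of -0.33 (95% interval -0.66 to 0.0059, adjusted p = 0.77 in edgeR). All 3 intervals included 0. Of the 17 alternatives, P2ry13 gained an unadjusted edgeR p under 0.05 in 7, Irf8 in 5 and Cd68 in 4. The next highest log2 fold changes were those of Aif1 at 0.23 (95% interval -0.13 to 0.58), P2ry12 at 0.20 (95% interval -0.012 to 0.41) and Cx3cr1 at 0.18 (-0.030 to 0.39). Below 0 were Tyrobp at -0.25 (95% interval -0.61 to 0.11) and the C1q chains at -0.023, -0.17 and -0.19 (C1qa, C1qb and C1qc). In this comparison all 5 choroid plexus markers, 5 of 8 oligodendrocyte markers and 5 of 6 dopamine neuron markers were lower in Dot1l(fl/fl) at an unadjusted edgeR p under 0.05. At the same threshold 1 of 5 red blood cell markers (Hba-a1, 0.66) and 1 of 8 neuron markers (Snap25, 0.21) were higher. The part of these lists in the result was not tested.

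The homeostatic genes (P2ry12, Tmem119, Cx3cr1 and Sall1) and the activation genes (Trem2, Tyrobp, Cd68, Cst7, Itgax, C1qa, C1qb and C1qc) were then set side by side. The 4 homeostatic genes summed to 121.7, 136.9 and 145.0 CPM in Dot1l(+/+), to 125.2, 128.6 and 142.4 CPM with 1 floxed allele and to 139.6, 144.9 and 139.3 CPM with 2. Their range in Dot1l(fl/fl) lay inside that of the controls. The 8 activation genes summed to 88.2, 86.1 and 91.8 CPM in Dot1l(+/+), to 78.9, 114.4 and 113.1 CPM with 1 floxed allele and to 89.0, 105.2 and 94.5 CPM with 2. In each floxed genotype 2 of the 3 sums were above all controls, and replicate 1 was inside the control range in Dot1l(fl/fl) and below it in Dot1l(fl/+). These sums mostly reflect C1q. C1qa, C1qb and C1qc had means of 24.5, 27.4 and 20.4 CPM in Dot1l(+/+), where the mean sum of the activation genes was 88.7 CPM.

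**Figure D4:**
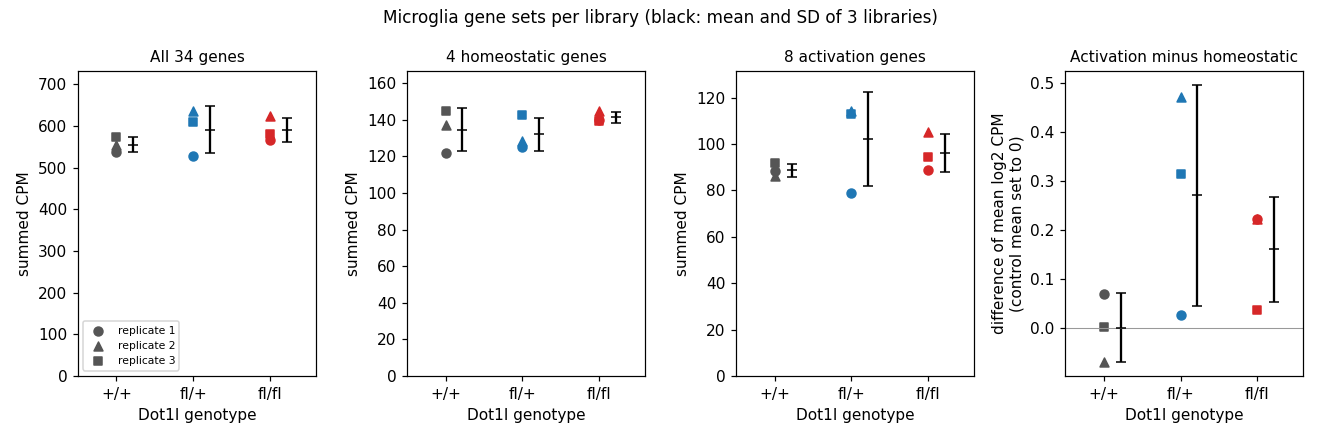
Summed CPM of all 34 microglia genes, of the 4 homeostatic and of the 8 activation genes, and the mean log2 CPM of the activation genes minus that of the homeostatic genes (control mean set to 0), for each library by Dot1l genotype. Symbols give the replicate number, and the black bars give mean and SD of 3 libraries. Homeostatic sums overlap in all 3 genotypes, while replicates 2 and 3 of both floxed genotypes have activation sums above all controls. The C1q chains make up most of the activation sums.

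The median log2 fold change of the homeostatic genes was -0.040 with 1 floxed allele and 0.097 with 2, each against the same Dot1l(+/+) libraries. That of the 7 tested activation genes was 0.22 and 0.28 in that order. The first of these was 0.37 without replicate 1 of Dot1l(fl/+) and 0.11 without replicate 2 or 3. The homeostatic median with 2 floxed alleles was 0.0015 without replicate 1 of Dot1l(+/+), 0.026 without replicate 2 of Dot1l(fl/fl) and 0.17 without replicate 3 of Dot1l(+/+) or replicate 1 of Dot1l(fl/fl). Between both floxed genotypes the activation genes had a median of -0.17, with 2 of 7 above 0, and the homeostatic genes one of 0.096. With a length and GC offset in the edgeR fit, the medians with 1 floxed allele were 0.015 for the homeostatic and 0.13 for the activation genes, the former with a changed sign. Activation genes called in these comparisons were Tyrobp in Dot1l(fl/+) and Trem2 in Dot1l(fl/fl), both at an unadjusted p under 0.05 in edgeR and in DESeq2, and no homeostatic gene was called. At an adjusted p of 0.05 neither passed in the filtered edgeR fit or in DESeq2, and Tyrobp passed in edgeR without a filter (adjusted p = 0.0345). With the replicate number as a block Tmem119 was called with 1 floxed allele, and with the block and the length and GC offset Cx3cr1 was called with 2. Without a filter on low counts the same pair was called, as were C1qa and C1qc of the activation genes with 1 floxed allele and C1qa with 2. Leaving out single libraries brought calls of Tmem119, C1qa, C1qb, C1qc, Trem2 and Itgax with 1 floxed allele and of P2ry12, Cx3cr1, Sall1, C1qa and Tyrobp with 2. The difference between the mean log2 CPM of the 2 sets, with the control mean set to 0, was 0.070, -0.070 and 0.00073 in Dot1l(+/+), 0.025, 0.47 and 0.32 with 1 floxed allele, and 0.22, 0.22 and 0.037 with 2. Thus 2 of 3 libraries in each floxed genotype were above all controls, and the remaining library of each lay inside the control range. Itgax, with under 0.5 CPM, and Sall1 weighed on this difference. Without them it was 0.21, -0.084 and -0.12 in Dot1l(+/+), -0.067, 0.31 and 0.18 with 1 floxed allele, and 0.085, 0.035 and 0.053 with 2. The Dot1l(fl/fl) libraries were then all inside the control range, and of Dot1l(fl/+) only replicate 2 stayed above it.

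Other genes of microglia and their partners, taken from lists of their own, were read beside the members. Of 30 further genes known from microglia, 0 had an unadjusted edgeR p under 0.05 in Dot1l(fl/fl) against Dot1l(+/+). The share of all genes tested was 3.93%, so a count of 0 is near the background. Against Dot1l(fl/+), 4 of the 30 were higher in Dot1l(fl/fl) at that threshold (Mertk, a phagocytic receptor, 0.26, Cd33 0.29, Bin2 0.51 and Havcr2 0.40) and 1 was lower (Slc2a5, a fructose transporter, -0.45), beside 3.60% of all genes tested in the higher and 2.87% in the lower direction. The median of the 30 was -0.0075 for Dot1l(fl/+) and 0.078 for Dot1l(fl/fl), both against Dot1l(+/+). The members' medians in these comparisons were 0.11 and 0.095.

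Among 15 tested ligands and partners of the members, Il34, the neuronal ligand of Csf1r, was higher in Dot1l(fl/+) than in Dot1l(+/+) (28.6 CPM ± 2.87 against 24.7 ± 1.13, SD, n = 3 each, log2 fold change 0.21), as was the complement receptor C5ar1 (0.84), both at an unadjusted edgeR p under 0.05. These were 2 of 15, beside 4.30% of all genes tested in the higher direction. Cx3cl1, the fractalkine that Cx3cr1 reads, was at 304.3 ± 11.1, 323.7 ± 14.4 and 307.0 ± 11.02 CPM in the 3 genotypes. Against Dot1l(fl/+), C3 (-0.51) and C5ar1 (-0.79) were lower in Dot1l(fl/fl) at an unadjusted edgeR p under 0.05. Of all genes tested 2.87% were lower at this threshold. Among 21 tested genes of reactive microglia, the lysosomal proteases Ctsd (0.16) and Ctsl (0.16), the tetraspanin Cd9 (0.18) and B2m (0.26), the light chain of MHC class I, were higher in Dot1l(fl/+) than in Dot1l(+/+) at an unadjusted edgeR p under 0.05, 4 of 21 beside 4.30% of all genes tested. Most of these are also expressed by other brain cells. None of the 21 had such a p in Dot1l(fl/fl) against Dot1l(+/+), beside 3.93% of all genes tested. Against Dot1l(fl/+), Igf1, a growth factor, was higher in Dot1l(fl/fl) (0.19), and Ctsl (-0.13) and the chemokine Ccl6 (-0.68) were lower, at the same threshold. The shares of all genes tested were 3.60% higher and 2.87% lower. Of 10 inflammatory cytokine genes and related mediators only 4 were high enough to test, and Ptgs2 alone had an unadjusted edgeR p under 0.05, between Dot1l(fl/fl) and Dot1l(fl/+) (0.27). Of all genes tested 3.60% were higher there at this threshold. The bulk tissue does not show which cells the Ptgs2 RNA came from. No gene of these lists passed an adjusted p of 0.05 in edgeR.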

How the data were processed

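RNA of dissected midbrain from 9 pools of 3 mice was sequenced by the authors with a directional kit. Per the labels the build was GRCm38.p4, and the submitters' processing notes name bcl2fastq 2.17, Trimmomatic 0.30 and DESeq2 1.10.1. The aligner, counter and annotation are not given in the sources used here. The authors deposited raw counts per Ensembl gene. Their comparison tables (fold changes and p-values) were not used. The design text speaks of sorted cells at an embryonic stage, whereas the sample labels give tissue at P180. The labels were followed.

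Symbols, bounds and transcript lengths came from GENCODE M21, which held 47224 of the 47729 gene identifiers and 99.9% of counts. R 4.3.3 and edgeR 4.0.16 were used (filterByExpr, TMM, quasi-likelihood test, Benjamini-Hochberg adjustment over 17671 genes) with the 9 libraries fitted together by genotype alone. The common biological coefficient of variation was 8.81%. DESeq2 1.42.0 was an alternative. Tables came from pandas 2.3.3 and numpy 2.4.6 under Python 3.11.15, figures from matplotlib 3.10.9, and the fit was tested on simulated data.

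The members and lists were chosen with earlier results of these data known. Named are every member, Dot1l, and of each other list the 2 most abundant genes and those with an unadjusted p under 0.05, as far as a sentence needed them. The result of 1 listed gene is not reported here. Replicates are pools of animals, so p-values measure the spread between these pools. The methods describe matched sets, with an animal of each genotype per nest, but do not tie the sets to the replicate numbers. Replicates differed by 4.47 to 16.5 times the counting variance (chi-square per degree of freedom), so no library was a copy.

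Libraries of the same number deviated together from their group means over 15439 genes, with correlations of 0.137 to 0.459 in the 3 pairs of Dot1l(fl/+) with Dot1l(+/+), of 0.0935 to 0.463 in those of Dot1l(fl/fl) with Dot1l(+/+), and of 0.13 to 0.424 in those of Dot1l(fl/fl) with Dot1l(fl/+). Results with the number as a block are therefore given where they change a call or a count. Alternatives were DESeq2's size factors, other filters, the 2 genotypes alone, the replicate block, an offset for length and GC content, and leaving out each library.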

Additional observations from a re-analysis of the deposited data

How the results depend on the processing

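No result turned to a called change in the opposite direction in any of the 17 alternatives. Of 99 pairs of gene and comparison, 65 never changed their call. Across 1678 values, 28 lost and 56 gained an unadjusted p under 0.05, and 95 changed sign without being called in either fit. The counts depended more on the method. In the order Dot1l(fl/+) against Dot1l(+/+), Dot1l(fl/fl) against Dot1l(+/+) and Dot1l(fl/fl) against Dot1l(fl/+), genes past an adjusted p of 0.05 numbered 0, 0 and 0 in edgeR, 251, 118 and 164 without a filter, and 7, 3 and 14 in DESeq2. With the 2 genotypes alone 1 and 4 were called in the first and second comparison. With the replicate block 3 and 3 were called in the second and the last, and with the block and the length and GC offset 3 and 4. Leaving out 1 library gave 0 to 5, 0 to 4 and 0 to 12.

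Microglia genes with an unadjusted p under 0.05 numbered 6 without a filter in the first comparison, beside 7.61% of all genes (main 3, beside 8.39%). In the last (main 1, beside 6.48%) they numbered 5 without a filter, beside 6.34%, 3 with the 2 genotypes alone, beside 5.25%, 4 with the replicate block, beside 7.12%, and 2 with the block and the offset, beside 6.2%. Leaving out 1 library gave 1 to 8, 0 to 6 and 0 to 6, beside 5.45 to 12.5%, 2.13 to 5.26% and 4.9 to 9.79% of all genes, and medians of the microglia genes of 0.049 to 0.20, 0.036 to 0.17 and -0.089 to 0.072. The median of the activation genes then lay at 0.11 to 0.37, 0.22 to 0.30 and -0.32 to -0.010, and that of the homeostatic genes at -0.12 to 0.044, 0.0015 to 0.17 and 0.028 to 0.12. With the length and GC offset the median of the activation genes was 0.13, 0.23 and -0.084, that of the homeostatic genes 0.015, 0.11 and 0.062, and that of the microglia genes 0.092, 0.086 and 0.0088, and with the block as well the activation median was 0.12, 0.24 and -0.073. Without Itgax the activation median was 0.18, 0.25 and -0.095, and without Sall1 the homeostatic median was -0.020, 0.14 and 0.18. The causes were not tested. The lists without Itgax or Sall1 were added after the data were seen.

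Libraries correlated best with their own number in 6 of 6, 4 of 6 and 5 of 6 cases in the 3 comparisons. The replicate block alone changed no member's call beyond those given in the report. With the length and GC offset as well, Csf1r in the first comparison (0.12) and Cx3cr1 in the second (0.18) gained an unadjusted p under 0.05.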

Other observations

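The microglia genes varied with the replicate number inside each genotype. Replicate 1 was the lowest of its genotype for 19 of 33 members in Dot1l(+/+), 25 of 33 in Dot1l(fl/+) and 19 of 33 in Dot1l(fl/fl), while it was lowest for 32.3, 31.8 and 32.6% of all genes tested. Replicate 2 was highest for 20 of 33 members in Dot1l(fl/+) and for 20 of 33 in Dot1l(fl/fl), beside 37.4 and 32.6% of all genes tested, and replicate 3 was highest for 17 of 33 in Dot1l(+/+), beside 35.1%. The summed level of the members was lowest in replicate 1 of each genotype. Set side by side by number, Dot1l(fl/+) minus Dot1l(+/+) was -8.6, 81.7 and 34.6 CPM for replicates 1, 2 and 3, and Dot1l(fl/fl) minus Dot1l(+/+) was 29.5, 67.7 and 6.9 CPM. The labels do not say what libraries of the same number share, and the methods describe sets matched by nest without giving their numbers.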
